A study of Mus musculus with 15 samples.

Results

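The intestinal epithelial lineage genes are 33 listed genes that mark the absorptive and secretory cells of the gut lining, and they were followed here in RNA of sorted innate lymphoid cells, which do not belong to that lining. They were chosen by name as known markers of enterocytes, goblet cells, Paneth cells, stem cells and enteroendocrine cells, and make up 33 of the 22797 genes in the files. The list holds 4 genes shared by the epithelial lineages (Epcam, Krt8, Krt18 and Krt19), 15 of enterocytes, 6 of goblet cells, 4 of Paneth cells, 2 of stem cells and 2 of enteroendocrine cells. All 33 passed the filter on low counts, so the counts below cover every member.

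The study sequenced polyA RNA of type 2 innate lymphoid cells (ILC2) and type 3 innate lymphoid cells (ILC3) from the small intestine of female mice. The 15 libraries come from 4 times of day, ZT4, ZT10, ZT16 and ZT23, where ZT (Zeitgeber time) counts the hours from lights on. ILC2 have 2 libraries at ZT4, 2 at ZT10, 1 at ZT16 and 2 at ZT23, and ILC3 have 2 at each time. Per the labels' protocols, the digested intestines of 6 mice per time were pooled before antibody staining and flow sorting. No treatment or genotype separates the groups, and the sources used here name no strain, age, antibody or gate. How the pool was divided into replicates is not labelled, and p-values here therefore measure a spread between libraries that could be technical. All ILC2 libraries carry batch 1 and all ILC3 libraries batch 2, so cell type and batch cannot be told apart.

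The lining of the small intestine is a sheet of epithelial cells that stem cells at the crypt base renew throughout life. Enterocytes digest and absorb nutrients, goblet cells secrete mucus, Paneth cells beside the stem cells release antimicrobial peptides, and enteroendocrine cells release hormones. ILC2 and ILC3 are tissue lymphocytes without antigen receptors that lie close to this sheet, ILC2 making type 2 cytokines and ILC3 making interleukin 22, which acts on epithelial cells.

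The ILC2 libraries held 4016298 to 18538315 counts and the ILC3 libraries 5903163 to 24794403. The labelled cell types were checked against their defining genes in an edgeR quasi-likelihood fit over all libraries: 8 of 10 listed ILC2 markers, among them Gata3, Klrg1 and Il5, were lower in ILC3, and 6 of 9 listed ILC3 markers, among them Il23r and Il22, were higher. Levels are given in CPM, counts scaled to TMM-corrected library sizes, and in TPM, which also divides by gene length, where genes are compared with each other. In sorted RNA of this kind, fewer cells of a type and less RNA per cell cannot be told apart.

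The epithelial genes were present in every library, and their amount differed by up to 15.2 times between libraries of the same cell type and time. In ILC2 the summed level of the 33 genes was 252 and 2867 CPM in the ZT4 libraries, 614 and 724 CPM at ZT10, 1035 CPM at ZT16, and 1213 and 1755 CPM at ZT23. In ILC3 it was 399 and 6069 CPM at ZT4, 1059 and 1304 CPM at ZT10, 1220 and 996 CPM at ZT16, and 1692 and 16561 CPM at ZT23. Replicate 2 of ILC3 ZT23 and replicate 2 of ILC3 ZT4 thus stood above every other library, and the replicate 1 libraries of ZT4 were the lowest in each cell type. As a share of the library, the members took from 0.0227% (95% exact binomial interval 0.0215 to 0.0239%) to 0.270% of the counts in ILC2. In ILC3 the share ran from 0.0363% to 1.74% (1.74 to 1.75%). These intervals cover counting error only.

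**Figure D1:**
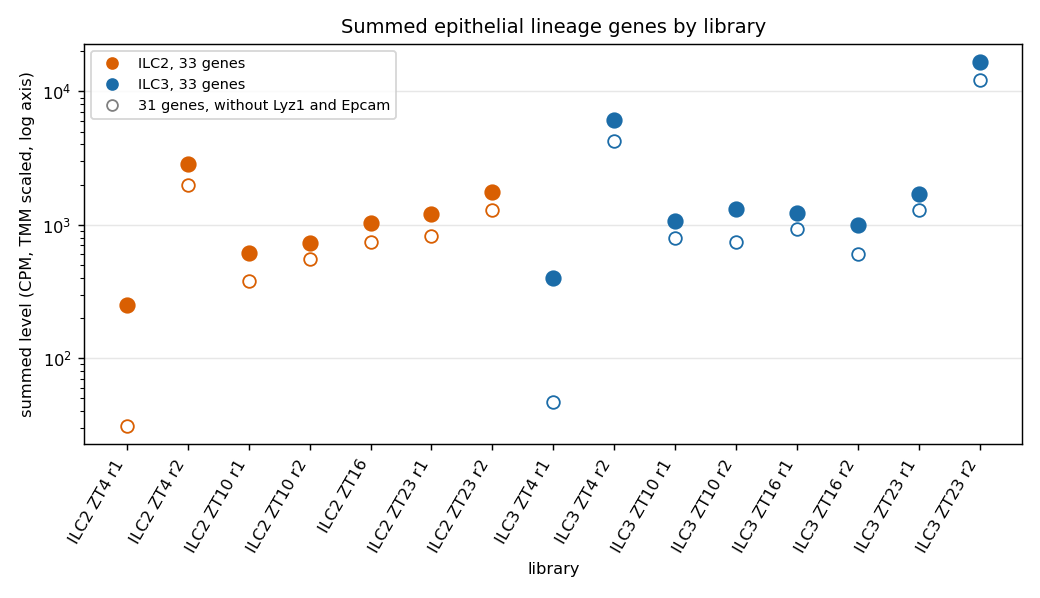
Summed level of the epithelial lineage genes in each library in CPM on a log axis, with filled points for all 33 genes and open points for the 31 genes other than Lyz1 and Epcam. Replicate 2 of ILC3 ZT23 (16561 CPM) and of ILC3 ZT4 (6069 CPM) stand highest, and the open points of the ZT4 replicate 1 libraries (30.9 and 46.7 CPM) stand apart at the bottom.

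Libraries that share a cell type and a time did not share a level. Within ILC2 ZT4 the higher library had 11.4 times the summed level of the lower, within ILC3 ZT4 15.2 times and within ILC3 ZT23 9.79 times. In the other groups with 2 libraries the ratio lay between 1.18 (ILC2 ZT10) and 1.45 (ILC2 ZT23). The gap went through the whole list: all 33 members were more than 1 log2 unit higher in replicate 2 of ILC3 ZT4 than in replicate 1, and likewise at ILC3 ZT23, and at ILC2 ZT4 32 of 33 were higher in replicate 2, all but Gcg. The median absolute log2 difference of a member between replicates was 5.38 at ILC3 ZT4, 4.52 at ILC2 ZT4 and 2.61 at ILC3 ZT23. Over all genes tested the same median was 0.48, 0.42 and 0.49.

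**Figure D2:**
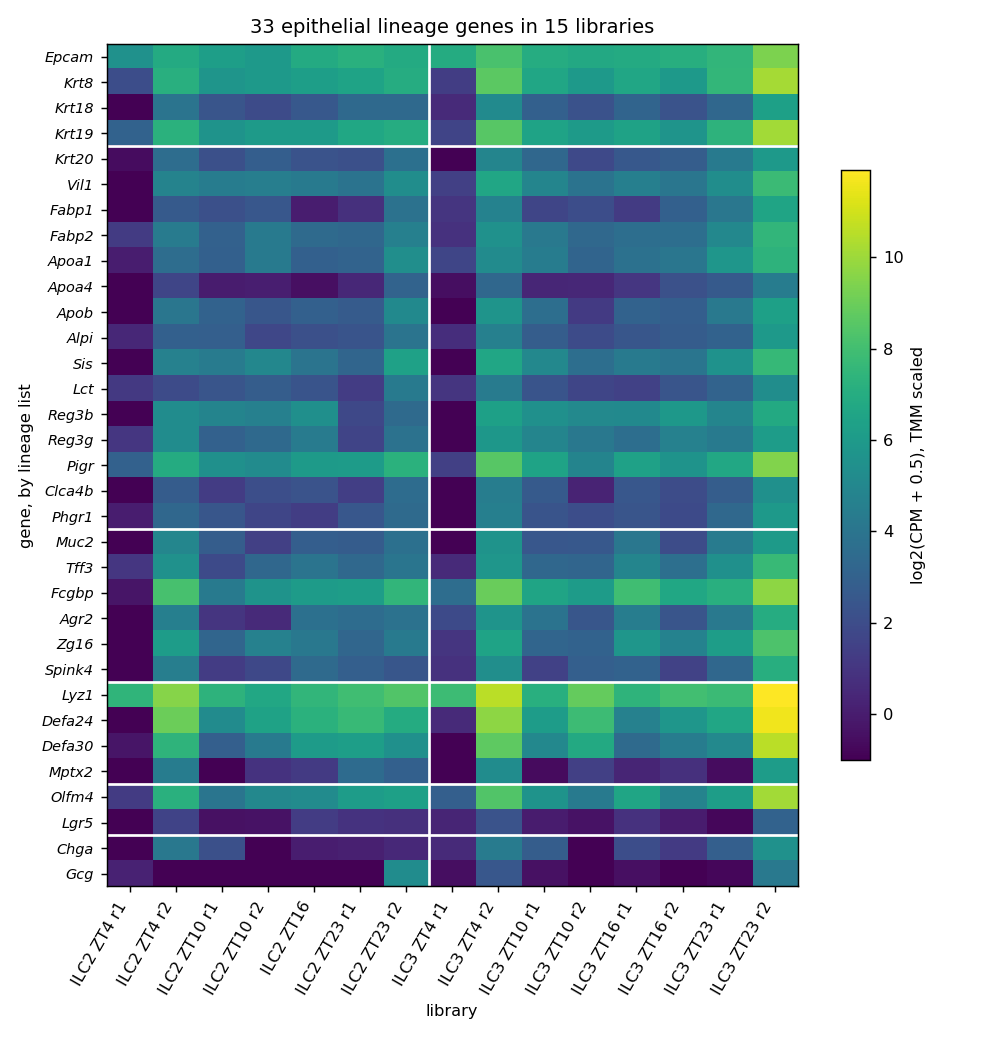
Level of each of the 33 genes (rows, by lineage list) in each of the 15 libraries (columns, ILC2 left and ILC3 right of the white line), as log2(CPM + 0.5). The 2 dark columns are the ZT4 replicate 1 libraries, in which Lyz1 and Epcam keep a visible level, and the brightest column is replicate 2 of ILC3 ZT23.

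Among the genes shared by the epithelial lineages, keratin 8 and keratin 19 followed each other closely, while Epcam fell far less in the libraries where they were lowest. In ILC2 Epcam was also lowest in ZT4 replicate 1, but in ILC3 it was not. Krt8 encodes a filament protein of simple epithelia. In ILC2 Krt8 stood at 3.57 and 142 CPM at ZT4, 51.7 and 62.6 CPM at ZT10, 75.3 CPM at ZT16, and 88.2 and 128 CPM at ZT23. In ILC3 it stood at 2.05 and 395 CPM at ZT4, 101 and 59.9 CPM at ZT10, 99.1 and 62.8 CPM at ZT16, and 187 and 1141 CPM at ZT23. The ZT4 replicate 1 library was the lowest of both cell types, and the ranges of the cell types overlapped. About 29.7% of the 50-base words of the Krt8 transcript also occur in transcripts of other genes, mainly the pseudogene Krt8-ps, so part of its reads could be shared with that copy.

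Krt19, a smaller keratin of the same tissues with no shared 50-base word, gave nearly the same picture. Its levels in ILC2 were 7.82 and 153 CPM at ZT4, 48.7 and 65.9 CPM at ZT10, 65.3 CPM at ZT16, and 104 and 128 CPM at ZT23. In ILC3 they were 2.60 and 379.7 CPM at ZT4, 89.0 and 65.6 CPM at ZT10, 87.3 and 49.9 CPM at ZT16, and 162 and 1106 CPM at ZT23. The ratio of Krt8 to Krt19 counts lay between 0.847 and 1.26 in the 13 libraries other than the ZT4 replicate 1 libraries. In those it was 0.457 (21 against 46 counts, ILC2) and 0.786 (11 against 14 counts, ILC3). Krt18, the usual filament partner of Krt8, ran from 0 to 15.2 CPM in ILC2 (median 5.46) and from 0.930 to 78.8 CPM in ILC3 (median 7.79). Per length its level was 0.066 to 0.148 times that of Krt8 in those 13 libraries.

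Epcam encodes an adhesion molecule on the surface of epithelial cells. In ILC2 it stood at 46.1 and 116 CPM at ZT4, 74.6 and 61.7 CPM at ZT10, 117 CPM at ZT16, and 146 and 119.5 CPM at ZT23. The ILC3 libraries had 121 and 295 CPM at ZT4, 127 and 109 CPM at ZT10, 119.7 and 135 CPM at ZT16, and 181 and 659.5 CPM at ZT23. Outside replicate 2 of ILC3 ZT4 and ZT23 it stayed between 46.1 and 181 CPM, and the cell types overlapped. Counts of Epcam per count of Krt8 ran from 0.578 to 2.15 in 13 libraries. In the ZT4 replicate 1 libraries this ratio was 12.9 in ILC2 (271 against 21 counts) and 59.3 in ILC3 (652 against 11 counts). No 50-base word of Epcam transcripts occurs in another gene's transcripts.

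The Paneth cell genes were the most abundant per length. Over the 15 libraries the mean level was 1616 TPM for Defa24, 859 TPM for Lyz1 and 771 TPM for Defa30, against 228 TPM for Krt19, the next of the 33. Defa24 and Defa30 encode alpha-defensins, small peptides that Paneth cells secrete against bacteria, and lie on chromosome 8 of GRCm38.p6 (chr8:21734494-21735471 and chr8:21134650-21135598). Their coding sequences are identical at 275 of 279 bases, and the first 90 coding bases (GENCODE release M21) are shown here, with the differing base in capitals, because reads from such copies can be hard to assign.
Defa24: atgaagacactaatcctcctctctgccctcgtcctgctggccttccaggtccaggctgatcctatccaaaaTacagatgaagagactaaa
Defa30: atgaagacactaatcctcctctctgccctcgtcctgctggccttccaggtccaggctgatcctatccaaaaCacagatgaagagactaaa
Of the 50-base words of Defa30, 52.4% also occur in transcripts of other genes, and of Defa24 28.1%, mostly other defensins. The sources used here do not say how reads that map to several places were counted, which leaves the split between the defensins uncertain.

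Defa24 in ILC2 had no count in ZT4 replicate 1, which allows up to 0.510 CPM, and 510.2 CPM in ZT4 replicate 2. The other ILC2 libraries had 37.3 and 85.9 CPM at ZT10, 151 CPM at ZT16, and 209 and 123.5 CPM at ZT23. Across ILC3 the levels were 0.930 and 841 CPM at ZT4, 70.02 and 229 CPM at ZT10, 25.1 and 53.7 CPM at ZT16, and 99.6 and 3208 CPM at ZT23. The order over libraries was not that of the keratins: counts of Defa24 per count of Krt8 ran from 0.253 in ILC3 ZT16 replicate 1 to 3.82 in ILC3 ZT10 replicate 2, a 15.1-fold range over 13 libraries. Defa30 ran from 0.340 to 166 CPM in ILC2 (median 43.8) and from 0 to 1510 CPM in ILC3 (median 32.03), with Defa24 at 2.00 to 5.36 counts per count of Defa30 in those 13. Mptx2, a pentraxin of Paneth cells, had medians of 1.77 CPM in ILC2 and 0.986 CPM in ILC3. Its highest values were 20.8 CPM (ILC2 ZT4 replicate 2) and 70.4 CPM (ILC3 ZT23 replicate 2).

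Lyz1 encodes the lysozyme of Paneth cells, and its neighbour Lyz2 on chromosome 10 encodes the lysozyme of macrophages and other myeloid cells. Their coding sequences are identical at 422 of 444 bases, and 16.1% of the 50-base words of Lyz1 also occur in Lyz2. The first 90 coding bases of each are shown with the 7 differing bases in capitals, since a read has to be assigned to a copy by such differences.
Lyz1: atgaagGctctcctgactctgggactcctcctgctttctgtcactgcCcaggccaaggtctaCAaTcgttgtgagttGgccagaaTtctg
Lyz2: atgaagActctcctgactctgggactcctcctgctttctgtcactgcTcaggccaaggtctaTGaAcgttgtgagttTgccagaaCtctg
In ILC2 Lyz1 stood at 175 and 755 CPM at ZT4, 161 and 107 CPM at ZT10, 177 CPM at ZT16, and 246 and 338 CPM at ZT23. In ILC3 it stood at 231 and 1525 CPM at ZT4, 138 and 455 CPM at ZT10, 167 and 253 CPM at ZT16, and 219 and 3824 CPM at ZT23. The ZT4 replicate 1 libraries were therefore not low for Lyz1, although they held 0 and 0.930 CPM of Defa24. Lyz1 alone made up 69.5% of the member counts in ILC2 ZT4 replicate 1 and 57.9% in ILC3 ZT4 replicate 1, against 12.96 to 34.9% in the other 13 libraries. Lyz2 stood at 1302 and 1489 CPM in these 2 libraries, the highest value of each cell type, and at 129 to 1347 CPM in the others. The summed level of 8 listed macrophage and dendritic cell markers, Lyz2 included, was also highest there, at 2296 CPM in ILC2 and 3984 CPM in ILC3, with cell type medians of 923 and 2210 CPM. The part of Lyz2 reads in the Lyz1 counts was not tested.

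**Figure D3:**
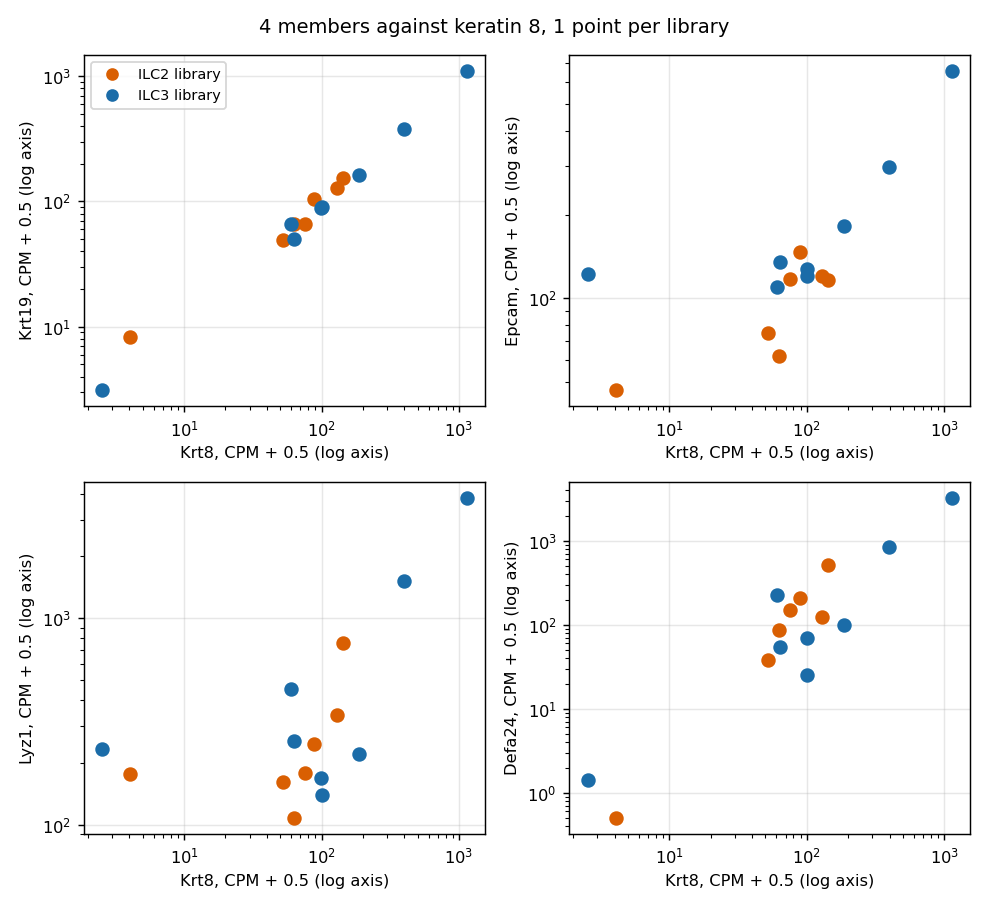
Level of Krt19, Epcam, Lyz1 and Defa24 against that of Krt8, as CPM + 0.5 on log axes, with 1 point per library (ILC2 orange, ILC3 blue). Krt19 runs along Krt8 through all libraries, Epcam and Lyz1 remain at 46.1 CPM or more in the 2 libraries with 2.05 and 3.57 CPM of Krt8, and Defa24 scatters widely at a given Krt8 level.

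Without Lyz1 and Epcam, the ZT4 replicate 1 libraries held almost none of the list. The remaining 31 members summed to 30.9 CPM there in ILC2 and 46.7 CPM in ILC3, against at least 379 CPM in each of the other 13 libraries. In ILC2 ZT4 replicate 1, 16 of 33 members had no count, and in ILC3 ZT4 replicate 1 10 of 33, against at most 2 in any other library. Total counts of these libraries, 6543306 and 5903163, were above the 4016298 of ILC2 ZT10 replicate 1, in which 31 members were detected.

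The enterocyte genes were lower per length than the defensins and differed in how they were spread over the libraries. Reg3b, a secreted antibacterial lectin, had the highest mean of the 15 at 94.5 TPM. In ILC2 Reg3b stood at 0 and 37.7 CPM at ZT4, 27.3 and 24.5 CPM at ZT10, 42.3 CPM at ZT16, and 3.02 and 10.6 CPM at ZT23. The ILC3 libraries had 0 and 79.9 CPM at ZT4, 43.2 and 33.1 CPM at ZT10, 34.6 and 58.4 CPM at ZT16, and 29.1 and 115 CPM at ZT23. Its level did not track the keratins closely: counts of Reg3b per count of Krt8 ran from 0.0342 in ILC2 ZT23 replicate 1 to 0.929 in ILC3 ZT16 replicate 2 over 13 libraries. Its relative Reg3g ran from 1.53 to 37.9 CPM in ILC2 and from 0 to 69.0 CPM in ILC3.

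Fabp2, the intestinal fatty acid binding protein, had a mean of 77.5 TPM. Its levels in ILC2 were 1.87 and 20.2 CPM at ZT4, 7.46 and 19.0 CPM at ZT10, 10.5 CPM at ZT16, and 9.42 and 23.7 CPM at ZT23. In ILC3 they were 1.30 and 45.2 CPM at ZT4, 18.1 and 9.59 CPM at ZT10, 12.01 and 12.2 CPM at ZT16, and 31.5 and 177 CPM at ZT23. Again the ZT4 replicate 1 libraries were lowest and the cell types overlapped. Fabp1, the liver-type form that enterocytes also make, ran from 0 to 14.1 CPM in ILC2 (median 3.98) and from 1.49 to 92.4 CPM in ILC3 (median 5.44).

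Among the lipid carriers, Apoa1 ran from 0.510 to 41.4 CPM in ILC2 (median 8.09) and from 2.79 to 159 CPM in ILC3 (median 18.8). Apoa4 ran from 0 to 8.12 CPM in ILC2 (median 0.549) and from 0.186 to 20.7 CPM in ILC3 (median 2.81). Its transcript shares 60.9% of its 50-base words with other annotated genes, the largest share of the 33, so part of its reads could belong to those genes. Apob, the scaffold of the lipid particles, ran from 0 to 34.4 CPM in ILC2 and from 0 to 79.0 CPM in ILC3. Of the brush border enzymes and structural proteins, Sis, the sucrase-isomaltase, ran from 0 to 83.5 CPM in ILC2 (median 20.4) and from 0 to 201 CPM in ILC3 (median 25.4). Lct, the lactase, had medians of 4.61 and 4.63 CPM, and Alpi, the intestinal alkaline phosphatase, 4.59 and 6.37 CPM. Vil1, which bundles actin in the brush border, ran from 0 to 40.2 CPM in ILC2 (median 20.9) and from 2.23 to 223 CPM in ILC3 (median 26.0). Pigr, the receptor that carries IgA across the epithelium, had medians of 64.7 and 84.8 CPM and ran up to 153 CPM in ILC2 and 708.5 CPM in ILC3. The remaining members Krt20, Clca4b and Phgr1 had highest values of 12.98, 11.2 and 10.5 CPM in ILC2 and reached 63.0, 43.5 and 63.6 CPM in ILC3. In ILC2 13 of 15 enterocyte genes were highest in ZT23 replicate 2, and in ILC3 all 15 were highest in ZT23 replicate 2.

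The sequence before the members' start sites was also read for what they share. Whether it bears on their common rise and fall over libraries was not tested. Promoter windows of 300 bases (250 before to 50 after the start, RefSeq, GRCm38.p6) were found for 27 of 33 members. The letters TTTATNG, bound by the CDX factors of the intestine, occurred on either strand in 11 of 27 member windows (40.7%) and in 10.9% of all 32851 promoter windows. The TATA letters TATAAA occurred in 13 of 27 (48.1%) against 13.6%, and the 2 motifs can overlap, since TTTATAG holds TTTATA, which is TATAAA on the other strand. All CDX matches of Alpi, Apob, Defa30, Krt20 and Reg3g held the TATA letters in this way, so the counts of the 2 motifs are not separate. The GATA letters AGATAA occurred in 4 of 27 (14.8%) against 11.2%. The letters CAAAGTCCA, known for HNF4, occurred in 1 window, that of Alpi (3.70% against 0.475% of all). Such matches describe letters only. The windows of Fabp1 (chr6:71199629-71199928, plus strand), Sis (chr3:72967814-72968113, minus strand) and Alpi (chr1:87101557-87101856, minus strand) are shown 5′ to 3′ with all matches in capitals, Fabp1 for its 3 CDX matches, Sis for 2 TATA matches and a CDX match, and Alpi for the HNF4 match.
Fabp1: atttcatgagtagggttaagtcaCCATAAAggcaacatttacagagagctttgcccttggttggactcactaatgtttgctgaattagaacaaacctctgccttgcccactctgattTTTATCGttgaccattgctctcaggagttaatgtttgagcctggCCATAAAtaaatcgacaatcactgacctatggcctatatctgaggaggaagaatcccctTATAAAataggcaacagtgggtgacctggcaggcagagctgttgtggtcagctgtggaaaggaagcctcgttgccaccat
Sis: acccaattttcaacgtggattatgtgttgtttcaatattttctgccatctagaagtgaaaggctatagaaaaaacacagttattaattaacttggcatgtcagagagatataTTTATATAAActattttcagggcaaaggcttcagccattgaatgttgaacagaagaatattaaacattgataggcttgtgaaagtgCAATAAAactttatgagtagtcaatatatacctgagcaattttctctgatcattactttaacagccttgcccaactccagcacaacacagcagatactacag
Alpi: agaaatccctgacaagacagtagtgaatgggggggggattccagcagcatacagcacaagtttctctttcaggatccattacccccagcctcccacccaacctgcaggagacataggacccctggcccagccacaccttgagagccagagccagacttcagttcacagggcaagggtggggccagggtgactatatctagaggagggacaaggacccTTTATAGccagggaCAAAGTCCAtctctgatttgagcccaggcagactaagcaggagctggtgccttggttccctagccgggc

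Goblet cell genes were led per length by Zg16 and Tff3 and by count by Fcgbp. Zg16 encodes a lectin of the mucus layer, with a mean of 142 TPM. In ILC2 it stood at 0 and 69.6 CPM at ZT4, 8.70 and 24.7 CPM at ZT10, 17.3 CPM at ZT16, and 9.05 and 19.0 CPM at ZT23. Across ILC3 the levels were 1.49 and 89.2 CPM at ZT4, 8.71 and 7.93 CPM at ZT10, 54.4 and 26.3 CPM at ZT16, and 72.7 and 311 CPM at ZT23. Tff3, a small trefoil peptide secreted with mucus, had a mean of 127 TPM. In ILC2 it stood at 1.53 and 46.2 CPM at ZT4, 3.23 and 9.28 CPM at ZT10, 14.99 CPM at ZT16, and 9.78 and 15.5 CPM at ZT23. In ILC3 it stood at 0.930 and 53.8 CPM at ZT4, 9.51 and 8.88 CPM at ZT10, 28.9 and 12.5 CPM at ZT16, and 43.3 and 209 CPM at ZT23. Both were highest in ZT4 replicate 2 in ILC2 and in ZT23 replicate 2 in ILC3, and neither separated the cell types.

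Fcgbp, a large protein of the mucus gel, ran from 0.340 to 287 CPM in ILC2 (median 66.2) and from 11.5 to 830.4 CPM in ILC3 (median 121). Muc2, the gel-forming mucin itself, had medians of 6.46 and 11.2 CPM and highest values of 30.2 and 64.2 CPM. Its deposited length of 2923 bases is short beside the 6962 different 50-base words in its annotated transcripts, so its 10.1 TPM is an uncertain level. Agr2, which helps mucins fold, ran from 0 to 23.1 CPM in ILC2 (median 11.2) and from 3.16 to 128.5 CPM in ILC3 (median 16.3). Spink4, a secreted protein of goblet cells, ran from 0 to 22.1 CPM (median 4.97) and from 1.30 to 136 CPM (median 7.44). All 6 goblet members were highest in ZT4 replicate 2 among the ILC2 libraries.

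Olfm4, a secreted marker of crypt base stem cells, had a mean of 156 TPM, the sixth of the 33. In ILC2 it stood at 1.87 and 146 CPM at ZT4, 15.7 and 32.6 CPM at ZT10, 36.3 CPM at ZT16, and 69.2 and 79.6 CPM at ZT23. The ILC3 libraries had 7.07 and 339.7 CPM at ZT4, 49.4 and 19.1 CPM at ZT10, 94.9 and 26.9 CPM at ZT16, and 73.3 and 1097 CPM at ZT23. Lgr5, the receptor that defines these stem cells, was the lowest of the 33 per length at 0.613 TPM. In ILC2 Lgr5 stood at 0 and 2.52 CPM at ZT4, 0.248 and 0.275 CPM at ZT10, 1.92 CPM at ZT16, and 1.33 and 1.22 CPM at ZT23. Across ILC3 the levels were 0.744 and 4.35 CPM at ZT4, 0.477 and 0.277 CPM at ZT10, 1.30 and 0.492 CPM at ZT16, and 0.0883 and 7.73 CPM at ZT23. The values in ILC3 ZT23 replicate 1, ILC2 ZT10 replicate 1 and ILC2 ZT4 replicate 1 were under what 3 counts give there (0.133, 0.746 and 0.510 CPM).

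The enteroendocrine genes were patchy. Gcg, the precursor of glucagon and glucagon-like peptides, had 698 counts (38.6 CPM) in ILC2 ZT23 replicate 2, and 0 to 4 counts in each of the other 6 ILC2 libraries. In ILC3 it had 294 counts (18.3 CPM) in ZT23 replicate 2, 118 counts (5.13 CPM) in ZT4 replicate 2, and 0 to 6 counts in the others. Chga, a granule protein of most enteroendocrine cells, followed another order. In ILC2 it had 215 counts (17.5 CPM) in ZT4 replicate 2, where Gcg had 0 counts, which allows up to 0.244 CPM. In ILC2 ZT23 replicate 2, the library with the most Gcg, Chga had 16 counts (0.884 CPM). In ILC3 Chga ran from 0 counts in ZT10 replicate 2 to 719 counts (44.8 CPM) in ZT23 replicate 2. Gcg was the only member whose highest library was not ILC3 ZT23 replicate 2.

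Which lineage the epithelial RNA resembled changed from library to library. The make-up was taken as each lineage list's share of the summed TPM of 32 members, leaving out Lyz1, and depends on which genes are listed. Paneth genes had the largest share in 10 of 15 libraries, up to 71.4% in ILC3 ZT10 replicate 2, 68.0% in ILC3 ZT23 replicate 2, 64.3% in ILC2 ZT4 replicate 2 and 63.9% in ILC2 ZT23 replicate 1. With Lyz1 counted as well, Paneth genes led in 14 of 15 libraries, all but ILC3 ZT16 replicate 1 (26.2% against 27.6% for goblet genes). Without Lyz1, goblet genes led in that library with 32.8%, where the Paneth share was 12.4% and the stem share, at 8.19%, was the highest of all libraries. Enterocyte genes led in ILC2 ZT10 replicate 1 (30.3%) and ILC3 ZT16 replicate 2 (31.1%). In the ZT4 replicate 1 libraries the 4 shared epithelial genes led with 66.6% and 67.1%, and the Paneth share was 1.93% and 2.38%, against 75.9% and 67.0% with Lyz1. Epcam held most of the share of these 4 genes, at 38.1 TPM in ILC2 and 109 TPM in ILC3. Krt8, Krt18 and Krt19 had at most 9.70 and 3.50 TPM there.

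**Figure D4:**
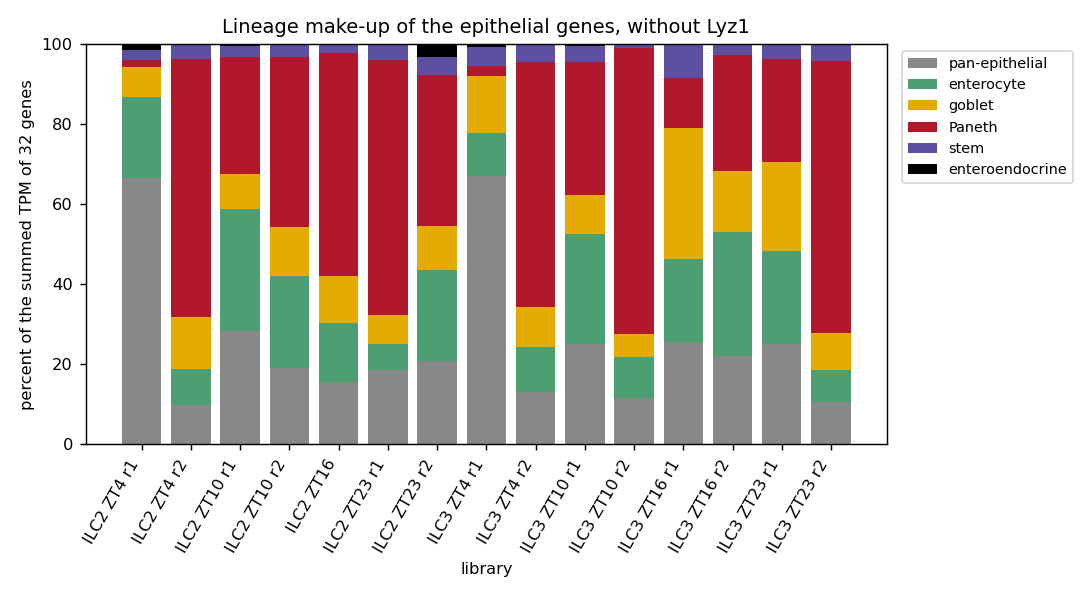
Share of each lineage list in the summed TPM of 32 epithelial genes (without Lyz1), with 1 bar per library. Paneth genes make up the largest share in 10 libraries, goblet genes in ILC3 ZT16 replicate 1 (32.8%), and the shared epithelial genes, mostly through Epcam, in the ZT4 replicate 1 libraries (66.6% and 67.1%).

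Libraries of the same cell type and time also differed in make-up. At ILC3 ZT10 the Paneth share was 33.1% in replicate 1 and 71.4% in replicate 2, and at ILC3 ZT23 25.6% and 68.0%. At ILC2 ZT23 the enterocyte share was 6.499% in replicate 1 and 22.9% in replicate 2. The libraries with the most epithelial RNA, ILC3 ZT23 replicate 2, ILC3 ZT4 replicate 2 (61.3%) and ILC2 ZT4 replicate 2, all had Paneth shares over 61%, but so did ILC2 ZT23 replicate 1 and ILC3 ZT10 replicate 2, whose summed levels were 1213 and 1304 CPM.

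As a description, each member's log2(CPM + 0.5) was correlated over the 15 libraries with the log2 summed level of the other 32, after each cell type's mean was subtracted. Pearson's r ran from 0.594 (Gcg) to 0.956 (Spink4), with a median of 0.885, and was over 0.9 for 10 members. Reg3b (0.644) and Lyz1 (0.737) were also low. Over the 13 libraries without the ZT4 replicate 1 libraries, r was 0.344 for Reg3b and 0.915 for Lyz1. The points share their libraries, depth and scaling. Outside the list, the same measure against the sum of all 33 members exceeded 0.9 for 324 of 14301 genes (2.27%). The 15 genes most like the members included Pkp1 (r = 0.978), Cth, Lurap1l, Aldh1b1, Gstm3, Ctnnd1, Nectin2, Plch2, Reg4, Ugt2b35, Plpp2, Mmp7, Csrp2 and Cyp2c65 (r = 0.964). Pkp1 and Ctnnd1 encode proteins of cell junctions, and Mmp7 the protease that activates defensins in Paneth cells. The most abundant of the 15 by highest library was Aldh1b1, a mitochondrial aldehyde dehydrogenase, which ran from 9.52 CPM in ILC2 ZT4 replicate 1 to 718 CPM in ILC3 ZT23 replicate 2.

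Between the cell types, 1 of 33 members passed an adjusted p of 0.05, Epcam, which was higher in ILC3. Over all genes tested 27.1% passed in this comparison, so the members' 3.03% is below the background. In the edgeR quasi-likelihood fit over 15 libraries, with Benjamini-Hochberg adjustment over 15339 genes, Epcam was higher by 0.99 ± 0.31 (SE) on the log2 scale (adjusted p = 0.0313), with means of 97.2 ± 36.5 CPM (SD, n = 7) in ILC2 and 219 ± 188 CPM (SD, n = 8) in ILC3. This call was kept in 4 of the 15 fits that leave out 1 library. The estimates of all 33 members were above 0, from 0.50 to 2.57 with a median of 1.05, against a median of 0.11 over all genes tested. Their median SE was 0.83, against 0.24 over all genes. ILC2 and ILC3 libraries overlapped in every member, described here without a share over all genes.

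The estimates of named members were as broad. Krt8 was higher in ILC3 by 1.16 ± 0.83 log2 units (edgeR adjusted p = 0.333) and Krt19 by 1.05 ± 0.78 (0.355). Among enterocyte genes Fabp1 came closest to the threshold with 1.88 ± 0.83 (unadjusted p = 0.0435, adjusted 0.118), while Fabp2 gave 0.98 ± 0.65 and Reg3b 1.29 ± 0.86. Zg16 and Tff3, of goblet cells, gave 1.08 ± 0.82 and 1.11 ± 0.72. Defa24 gave 0.84 ± 1.14 and Lyz1 1.28 ± 0.60 (adjusted p = 0.139). The stem genes Olfm4 and Lgr5 gave 1.36 ± 0.88 and 0.50 ± 0.89, and the enteroendocrine genes Chga and Gcg 2.15 ± 1.25 and 2.57 ± 2.34. For Gcg the mean level was nevertheless higher in ILC2 (5.61 CPM) than in ILC3 (3.03 CPM), since the fit averages log levels over the 4 times and Gcg had 0 to 4 counts in each ILC2 library of ZT4, ZT10 and ZT16.

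The comparison rested on individual libraries. Without ILC2 ZT4 replicate 2, the median estimate of the members was 3.13, against 0.14 over all genes tested. Without ILC3 ZT4 replicate 2 the median was -0.12, and 13 of 33 estimates were above 0. Without ILC3 ZT23 replicate 2 the median was 0.61, and without both of these ILC3 libraries it was -0.60, with 6 of 33 above 0. Where a ZT4 replicate 2 library was left out, only replicate 1, the lowest of its cell type, stood for that group. Without both ZT4 replicate 1 libraries, a fit chosen after seeing the data, the median was 1.04 and 33 of 33 estimates were above 0. The size and sign of the members' median estimate thus depended on which libraries were counted.

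**Figure D5:**
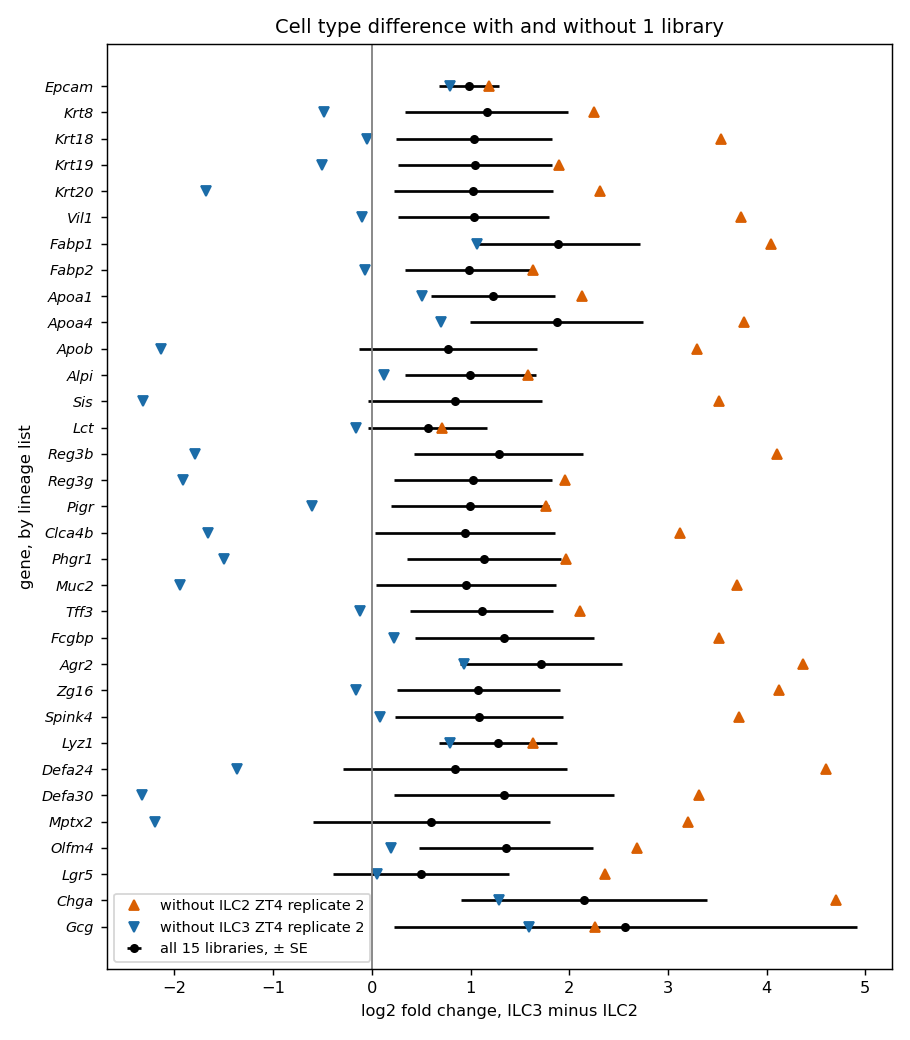
Log2 fold change of each member, ILC3 minus ILC2, from the edgeR fit over all 15 libraries (black, ± SE), without ILC2 ZT4 replicate 2 (orange) and without ILC3 ZT4 replicate 2 (blue). All black points lie above 0, and 20 of 33 blue points lie below 0.

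Over the 4 times of day no member passed the test in ILC2, in ILC3 or for the difference between them, and the same holds for all genes tested (0% in each edgeR comparison). At an unadjusted p of 0.05, 1 of 33 members passed in ILC2 (Gcg), 4 in ILC3 (Epcam, Fabp1, Apoa1 and Lyz1) and 0 for the interaction, against 516, 669 and 307 of 15339 genes. With DESeq2 0 members passed in each of the 3 tests, against 24, 28 and 2 genes in all. The mean summed level of the members was 1559 ± 1849 CPM (SD, n = 2) at ZT4 in ILC2 and 3234 ± 4009 CPM (SD, n = 2) at ZT4 in ILC3, so the spread between replicates at that time exceeded the mean.

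Other epithelial genes, from lists of the same lineages and of tuft and M cells, were counted in the same fit. Of the 114 listed genes 107 were tested, and 8 were higher and 9 lower in ILC3 (over all genes 15.1% were higher and 12% lower), with a median estimate of 1.05 log2 units, and 36 of the 107 had r over 0.9 with the members. Among the other shared epithelial genes the highest means were Lgals4 (207 TPM) and Cldn3 (69.6 TPM), a galectin and a tight junction protein. Klf5 was the only called gene of these 17, lower in ILC3 by 2.09 ± 0.61 (edgeR adjusted p = 0.0228). Of 31 other enterocyte genes tested, Lypd8 and Anpep had the highest means (181 and 109 TPM). Anpep (an aminopeptidase) and Espn (an actin bundler) were higher and Ada (adenosine deaminase) lower in ILC3, with r to the members of 0.317, -0.674 and -0.596. Of 12 goblet genes Tpsg1 was higher and Galnt12 and Klk1 lower in ILC3, and Klk1 and Galnt12 had the highest means (90.9 and 69.6 TPM).

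None of 11 other Paneth genes was called in the edgeR fit, and the highest of them were Defa17 (683 TPM) and Defa21 (427 TPM). Their summed level was 1.02 CPM in ILC2 ZT4 replicate 1 and 0.744 CPM in ILC3 ZT4 replicate 1, against 5181 CPM in ILC3 ZT23 replicate 2. Itln1, a lectin of Paneth and goblet cells, went from 0 counts in both ZT4 replicate 1 libraries to 1582 CPM in ILC3 ZT23 replicate 2. Of 10 other stem genes Rnf43 was higher and Axin2, Cd44 and Znrf3 lower in ILC3, and Cd44, an adhesion receptor that lymphocytes also carry, had the highest mean (161 TPM), followed by Slc12a2 (12 TPM). Of 15 other enteroendocrine genes tested none was called, and Reg4 (18.4 TPM) and Tph1 (10.9 TPM) were the highest.

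Genes of 2 further epithelial types were near the limit of detection or did not follow the members. Of 10 tuft cell genes, 6 stayed under 1 CPM in every library, among them Pou2f3, Gnat3 and Il25, of which Il25 had 0 counts. Gfi1b, another of the 6, was called higher in ILC3, and Avil had the highest mean of the list (8.36 TPM). Of 6 M cell genes, Gp2, Pglyrp1 and Tnfaip2 were higher and Sox8 and Spib lower in ILC3, and Tnfaip2 and Spib had the highest means (116 and 50.8 TPM). The summed level of the 6 was highest in ILC3 ZT4 replicate 1 (1178 CPM), where the members were lowest in ILC3. Of the genes of gut regions, the ileal Fabp6 had a mean of 124 TPM, while the ileal Slc10a2 and Fgf15 had 0.544 and 0.824 TPM. The colonic Car1 and Retnlb stayed under 1 CPM in every library. In ILC3 ZT23 replicate 2 the colonic Car4 and Slc26a3 reached 42.7 and 28.4 CPM. The summed proximal, ileal and colonic lists were each highest in that library, at 292.5, 218 and 84.2 CPM. Which region the RNA came from was not tested.

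Markers of other cells moved with the members in part. The summed level of 10 ILC2 markers and of 9 ILC3 markers had r = -0.730 and -0.755 with the members over the 15 libraries (cell type means subtracted), and each was lowest within ILC3 in ZT23 replicate 2 (835 and 1684 CPM). Both lists hold Il7r and Id2, at 329 and 332 CPM in that library, so the marker sums are not separate. Erythroid genes (5 of 6 listed genes found) were highest in the same library, at 1045 CPM against 28.7 to 126 CPM in the other ILC3 libraries. The sum of stromal and endothelial genes (7 of 7 found) was highest in ILC3 ZT4 replicate 2 (427.5 CPM against at most 153 CPM) and in ILC2 ZT4 replicate 2 (190 CPM against at most 143 CPM). The endothelial Cdh5 and Pecam1 did not share this rise. They stood at 0.869 and 91.0 CPM in ILC3 ZT4 replicate 2 (ILC3 medians 0.772 and 94.2 CPM). In ILC2 ZT4 replicate 2 they stood at 16.6 and 84.4 CPM (ILC2 medians 17.7 and 93.4 CPM). Plasma cell genes (7 of 7) summed to 19422 to 195628 CPM in ILC2 and 569 to 4531 CPM in ILC3, and had r = 0.488 with the members. T cell genes (7 of 7) ran from 453 to 747 CPM in ILC2 and from 318 to 2624 CPM in ILC3, with r = 0.134. The part of any of these cells in the epithelial levels was not tested.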

How the data were processed

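PolyA RNA of sorted ILC2 and ILC3 was counted per gene by the authors with featureCounts on mm10, per the submitters' processing notes; the deposited values are raw read counts under Entrez identifiers, with the gene lengths the authors deposited beside them. The sources used here name no aligner, strand setting or treatment of multi-mapping reads. Identifiers were named through RefSeq GRCm38.p6 (22718 of 22797). Groups and replicate numbers came from the titles. Total counts ran from 4016298 to 24794403 per library.

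Genes were kept by filterByExpr (minimum count 10), scaled with TMM and fitted in edgeR 4.0.16 (R 4.3.3) as 8 group means over 15 libraries, with 7 residual degrees of freedom, because 1 group has 1 library. Tests were ILC3 against ILC2 (group means averaged over times), an F-test over the 4 times in each cell type, and the interaction, with Benjamini-Hochberg adjustment over 15339 genes. TPM used the deposited lengths. Intervals are 95% exact binomial (Clopper-Pearson) intervals, and the limit for 0 counts is 3 counts. Replicates differed beyond sampling noise (chi-square per degree of freedom 22.0 to 229). Shared sequence was measured as 50-base words of GENCODE M21 transcripts. The procedure was tested on simulated data.

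The members, the other gene lists, the tests and the alternatives were chosen with earlier results of these data known. Values per library are given for the 2 members of each lineage list with the highest mean per kilobase and for Epcam, the lowest, median and highest value for other members that passed under leaving out 1 library (the rule as written asked for values per library there too), and the other members are summarised. 1 of the 15 genes most like the members is not reported here. Other epithelial genes named are those called, up to 3 per list, and the 2 with the highest mean. DESeq2 1.42.0, library size scaling, no filter, a replicate block and leaving out libraries were the alternatives.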

Additional observations from a re-analysis of the deposited data

Results flagged for a closer look

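In 26 groups of libraries (13 summed lists, each over the 7 ILC2 or the 8 ILC3 libraries with times pooled), 12 held a library far from the others by the ratio of its gap to the whole range (Dixon's test at 95%). Chance gives about 1 in 20 for a single group only if its values are normally distributed. The sums were taken in CPM and not as logs, and whether they are normally distributed was not tested. The lists are not separate, since the summed members are the sum of the 6 lineage lists, and 7 of the 12 are the same library on that sum and its parts. Replicate 2 of ILC3 ZT23 was far above the other ILC3 libraries for the summed members (16561 CPM) and for the lists of shared epithelial (2985 CPM), enterocyte (2117 CPM), goblet (1679 CPM), Paneth (8612 CPM), stem (1104 CPM) and enteroendocrine genes (63.2 CPM). It was also far above them for erythroid genes (1045 CPM). In ILC2 the Paneth genes of ZT4 replicate 2 stood apart (1452 CPM).

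Other lists singled out other ILC3 libraries. The sum of stromal and endothelial genes stood apart in ZT4 replicate 2 (427.5 CPM), the library with the second highest summed members. The endothelial Cdh5 and Pecam1 were not highest there. Macrophage and dendritic cell genes stood apart in ZT4 replicate 1 (3984 CPM), the library with the lowest summed members. Pancreatic acinar genes stood apart in ZT16 replicate 2 (208 CPM), the ILC3 library with the second lowest summed members (996 CPM). The part of these cells in the epithelial levels was not tested.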

How the results depend on the processing

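The count of members called between the cell types was 1 with library size scaling and with no filter, 2 with DESeq2 (Epcam, and Gcg at 8.72 log2 units with an adjusted p of 0.00165, against 2.57 and 0.462 in edgeR), and 3 with the replicate number as a block (Epcam, Fabp1 and Apoa4). Over all genes tested, the shares that passed in these fits were 28%, 23.4%, 31.3% and 26.3%, in the same order. Leaving out libraries moved it from 0 to 18: 0 in 11 of 15 fits without 1 library, 2 without ILC3 ZT23 replicate 1, 13 without ILC2 ZT4 replicate 2, and 18 without both. Chosen after seeing the data, the fits without both ZT4 replicate 1 libraries and without both high ILC3 libraries gave medians of 1.04 and -0.60. Over all genes tested the medians were 0.089 and 0.00066. Epcam stayed positive in all 22 alternatives, from 0.49 to 1.35 log2 units with adjusted p from 0.00122 to 0.107, and passed in 10. The log2 estimates of other named members, with libraries left out, ran for Krt8 from -0.95 to 2.45, for Krt19 from -0.997 to 2.09, for Fabp2 from -0.49 to 1.82, for Reg3b from -2.12 to 4.27, for Zg16 from -0.51 to 4.28, for Tff3 from -0.50 to 2.29, for Defa24 from -2.38 to 4.82, for Lyz1 from -0.0078 to 1.86, for Olfm4 from -0.55 to 2.91, for Lgr5 from -1.29 to 2.60, for Chga from -0.025 to 4.90, for Gcg from -0.057 to 5.35. Fabp1 stayed above 0 with libraries left out, from 0.65 to 4.22. With the replicate block none of these named members changed sign, while Mptx2 went to -0.022. For each of these shifts the cause was not tested beyond the libraries left out. The counts over time and for the interaction were 0 members in all alternatives. The median summed level of the members was 1035 CPM in ILC2 and 1262 CPM in ILC3, and 637 and 917 CPM without the Paneth members; the spread between libraries (SD 874 and 5505 CPM) is too wide to judge such shifts. The labels do not say whether same-numbered libraries are paired. Deviations of same-numbered libraries correlated over 0.1 in 6 of 21 pairs of groups, times mixed (median 0.031, lowest -0.145, highest 0.489). Between ILC2 and ILC3 of the same time r was 0.489 at ZT4, 0.216 at ZT10 and -0.042 at ZT23, so pairing within a time was not settled. Depth limits low members such as Lgr5 and Gcg, with 3 counts at 0.119 to 0.746 CPM over the libraries.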

Other observations

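Pancreatic acinar genes, which encode digestive enzymes made outside the gut wall, did not follow the epithelial genes. Their 11 listed genes summed to 208 CPM in ILC3 ZT16 replicate 2, 30.8 CPM in ILC2 ZT10 replicate 2 and at most 21.8 CPM in any other library, with r = 0.302 to the members. Cela2a, an elastase, stood at 35.4 CPM in ILC3 ZT16 replicate 2 and at 6.37 CPM or less elsewhere, and Cpa1, a carboxypeptidase, at 20.5 CPM and at 1.92 CPM or less.

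Rbp2, the retinol binding protein of enterocytes, had 3 counts over all 15 libraries, although its lineage mates Fabp2 and Apoa1 had mean levels of 77.5 and 52.8 TPM. None of its 960 50-base words occurs in another gene's transcripts. It was chosen after its values were seen.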
